A study of Gallus gallus with 3 samples.

Results

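The genes described here are those whose names place them among the G protein-coupled receptors in RNA sequencing of chicken DT40-ASF cells. They were chosen by name, as rows of the read-count table starting with GPR and a digit, P2RY, CCR and a digit, CXCR, S1PR, LPAR, PTGER, ADORA, ADRA, ADRB, HTR and a digit, or FZD, with at least 30 counts summed over the 3 libraries. Of 11877 genes in the table, 95 had such a name and 58 reached 30 counts. DT40 is a B cell line from a chicken bursal lymphoma. All 3 libraries came from DT40-ASF cells, which the labels describe as reconstituted and which, from general knowledge of the line, lack the chicken SRSF1 gene and carry a human copy. There were 2 SRSF1-3 knock-in libraries, named clone 41 and clone 47, each from 1 clone, and 1 control library from untransfected cells. SRSF1 is a splicing regulator of the SR family, and SRSF1-3 is an isoform of it. The control was labelled as untransfected and not as a clone, so transfection and clonal history cannot be told apart from the knock-in.

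These receptors span the cell membrane and, on binding a ligand outside the cell, switch on heterotrimeric G proteins inside it. The G proteins act through cyclic AMP, phospholipase C or small GTPases, while RGS proteins, receptor kinases and arrestins end the signal. Frizzled receptors are a separate branch that binds Wnt proteins and acts largely through Dishevelled. In mammalian B cells, receptors of this superfamily steer cells within lymphoid tissue: CXCR5 follows the chemokine CXCL13 into follicles, CXCR4 responds to CXCL12, GPR183 to oxysterols, S1PR1 to sphingosine 1-phosphate at exit points, and P2RY8 holds cells in germinal centres. The roles given here are known from human or mouse genes and are background for these chicken data.

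Not every name belongs to a receptor. ADRBK2 was taken by its first letters, but it encodes a kinase that phosphorylates receptors, so 57 of the 58 genes are named as receptors. Several GPR-numbered genes are not known as classical cell-surface receptors: GPR89B encodes a Golgi ion channel protein, GPR107 a protein of the Golgi and endosomes, and GPR137B and GPR155 proteins of lysosomes. All 58 genes passed the filter on low counts used for the test, and no gene was at 0 counts in any library. Just inside the minimum lay GPR126 with 32 summed counts and CCR8 with 37, and just outside lay CCR6 with 28 and ADRA2B with 26. GPR126 and CCR8 had most of their counts in clone 47, where each was at least 2-fold above the control.

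The libraries held between 41760372 and 44868987 counts. The targeted gene, SRSF1, had 1991 counts in clone 41 and 5645 in clone 47, against 1402 in the control, which is 1.58 (clone 41) and 4.16 (clone 47) times the control level. Neither the isoform nor the species of these reads can be read from a count per gene. The B cell transcription factor gene PAX5 was near the control level in both clones, at 1.03 (clone 41) and 1.05 (clone 47) times the control level. Other B cell markers were not: of 13 listed markers, CXCR5 among them, 2 in clone 41 and 6 in clone 47 were at least 2-fold lower than in the control and 0 were at least 2-fold higher. The 2 in clone 41 were among the 6 in clone 47. The 13 markers' summed level was 904 CPM (counts relative to a library size scaled by TMM) in clone 41, 620 CPM in clone 47 and 1019 CPM in the control. T and NK cell markers summed to 24.6, 35.1 and 43.3 CPM in clone 41, clone 47 and the control, with CD4 at 0, 0 and 1 counts. Of 7 tested T and NK cell markers, 3 were at least 2-fold lower than the control in clone 41 and 0 higher. In clone 47, 2 of them were at least 2-fold lower and 1 higher. Myeloid markers summed to 131, 218 and 119 CPM with CSF1R at 1, 1 and 0 counts. All 5 tested myeloid markers were above the control in clone 47, 3 of them at least 2-fold (MPO, CD14 and CEBPB), and 0 were 2-fold lower; in clone 41, 0 were 2-fold away. Fibroblast and epithelial markers summed to 29.5, 16.9 and 20.3 CPM with LUM at 0, 2 and 0 counts. Of 3 tested ones, 1 was at least 2-fold lower in clone 41 and 1 at least 2-fold higher in clone 47. Of all tested genes, 3.20% were at least 2-fold higher and 5.55% lower in clone 41, and 9.42% higher and 7.57% lower in clone 47. Among all tested genes with a mean under 5 CPM, it was 11.9% higher and 20.9% lower in clone 41. In clone 47 it was 27.8% higher and 18.4% lower at that level. GP9, at 0, 0 and 1 counts, was the only one of 7 erythroid and thrombocyte markers in the table. The part of these marker levels in the results below was not tested.

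The knock-in clones together were compared with the control first. No member passed edgeR's quasi-likelihood test after Benjamini-Hochberg adjustment over all 10203 tested genes: 0 of 58 were called, where 0 (0%) of all tested genes were called. DESeq2, limma-voom and edgeR's legacy estimator also called 0 members. At an unadjusted edgeR p under 0.05 there were 3 members, GPR174, GPR132 and GPR149, which is 5.17% of members against 0.794% of all tested genes. That number was 2 with DESeq2, limma-voom and the legacy estimator and 1 with total-count scaling or no filter. Over all 10203 tested genes it was 86 with DESeq2, 74 with limma-voom, 106 with the legacy estimator and 41 with total-count scaling. With no filter it was 64 of 11877 genes. GPR174, GPR132 and GPR149 were among 31 members with a mean under 5 CPM, where 40 of all 2291 tested genes had such an edgeR p. At 5 CPM and above it was 0 of 27 members and 41 of all 7912 tested genes. The mean is over all 3 libraries. In the control alone, GPR174 was at 7.25 CPM and GPR132 at 6.32 CPM. The fit has 1 residual degree of freedom and fitted standard errors of members ran from 0.42 to 1.97 on the log2 scale. The values below compare single libraries, with no replicate within a clone. The range in parentheses after a ratio is its exact conditional binomial 95% interval, which covers counting error only. Reads may also be PCR copies of 1 molecule, which the interval does not allow for.

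By size, clone 41 had 14 of 58 members at least 2-fold away from the control, 9 of them higher and 5 lower. Clone 47 had 27, 9 of them higher and 18 lower. Of all tested genes, 8.75% in clone 41 and 17.0% in clone 47 were that far from the control. With total-count scaling the clone 41 split was 8 higher and 7 lower. By log2(FPKM + 0.1), which damps ratios of scarce genes, it was 6 and 6 in clone 41, and 2 higher and 18 lower in clone 47. By log2(FPKM + 1) it was 2 and 1 in clone 41, and 1 and 7 in clone 47. The shares of all tested genes given here are for TMM-scaled CPM. None was computed on the other scales, so those splits have no background to be read against. The members at least 2-fold lower in clone 47 made up 31.0% of the set, against 7.57% of all tested genes, and those at least 2-fold higher 15.5%, against 9.42%. In clone 41 the shares were 15.5% higher and 8.62% lower, against 3.20% and 5.55% of all tested genes.

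Members were less abundant than most tested genes, with a median of the mean CPM of 4.33 against 38.2 over all tested genes, and ratios of low counts scatter more. Each mean is over all 3 libraries, so a gene's own change moves its level. PTGER3, at 4.08 CPM in the control and 1.26 CPM in clone 41, exceeded 5 CPM through 26.5 CPM in clone 47. Among the 27 members with a mean of at least 5 CPM, clone 47 had 9 at least 2-fold away from the control, or 33.3%, against 8.53% of the 7912 tested genes at that level. Of these, 2 were higher (7.41%, against 4.11%) and 7 lower (25.9%, against 4.42%). In clone 41 it was 1 of 27, or 3.70%, against 1.78%. That 1 was PTGER3, which was also 1 of the 2 higher in clone 47. These counts thus rest partly on a gene that reached this level through its clone 47 value. Among the 31 members under 5 CPM the figures were 13 (41.9%) in clone 41 and 18 (58.1%) in clone 47, against 32.8% and 46.2% of the 2291 tested genes there. Lower in clone 47 were 11 of the 31 (35.5%, against 18.4%) and higher were 7 (22.6%, against 27.8%). In clone 41, 9 of the 31 were higher (29.0%, against 11.9%) and 4 lower (12.9%, against 20.9%). The median log2 ratio of members to the control was 0.06 in clone 41 and -0.42 in clone 47, where both medians over all tested genes were within 0.01 of 0. The clone 41 median of members changed sign with total-count scaling (-0.01), where the median over all tested genes was -0.08.

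**Figure D1:**
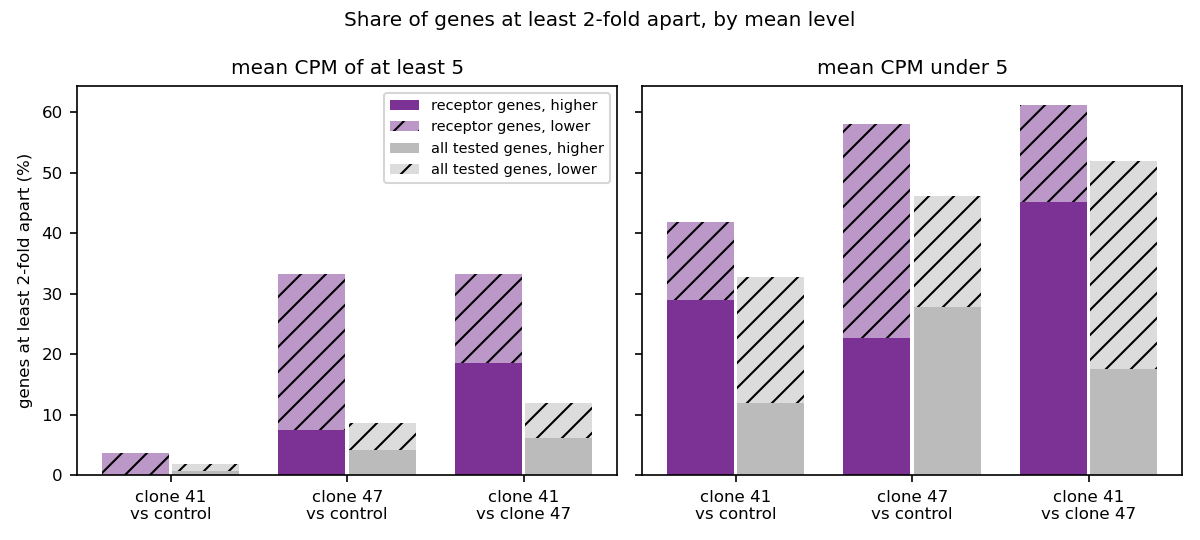
Percent of genes at least 2-fold apart in each comparison, for the 58 genes of the name rule (purple) and all tested genes (grey), split at a mean of 5 CPM; solid bars are higher and hatched bars lower in the first-named library. At 5 CPM and above, 25.9% of members were lower in clone 47 than in the control, against 4.42% of all tested genes.

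Levels of different receptors were compared in the deposited FPKM (fragment counts corrected for transcript length and depth), and 57 of the 58 genes had one. At or above 1 FPKM were 33 genes in clone 41, 29 in clone 47 and 34 in the control. GPR107 ranked highest in every library, at 38.8 FPKM in clone 41 and 33.3 FPKM in clone 47, against 37.4 FPKM in the control. CXCR5 came next in every library, at 34.8 FPKM in clone 41 and 18.5 FPKM in clone 47, against 36.9 FPKM in the control. P2RY8 had rank 3 in clone 41, 4 in clone 47 and 3 in the control, at 34.5 FPKM in clone 41 and 16.3 FPKM in clone 47, against 33.5 FPKM in the control. CXCR4 had rank 4 in clone 41, 6 in clone 47 and 8 in the control. At the other end, GPR126 and GPR158 stayed under 0.1 FPKM in all 3 libraries. The 8 genes with the highest mean CPM held 61.3% of the members' summed CPM in clone 41, 64.8% in clone 47 and 60.4% in the control. Summed over all members, that level was 1271 CPM in clone 41, 1068 CPM in clone 47 and 1236 CPM in the control.

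**Figure D2:**
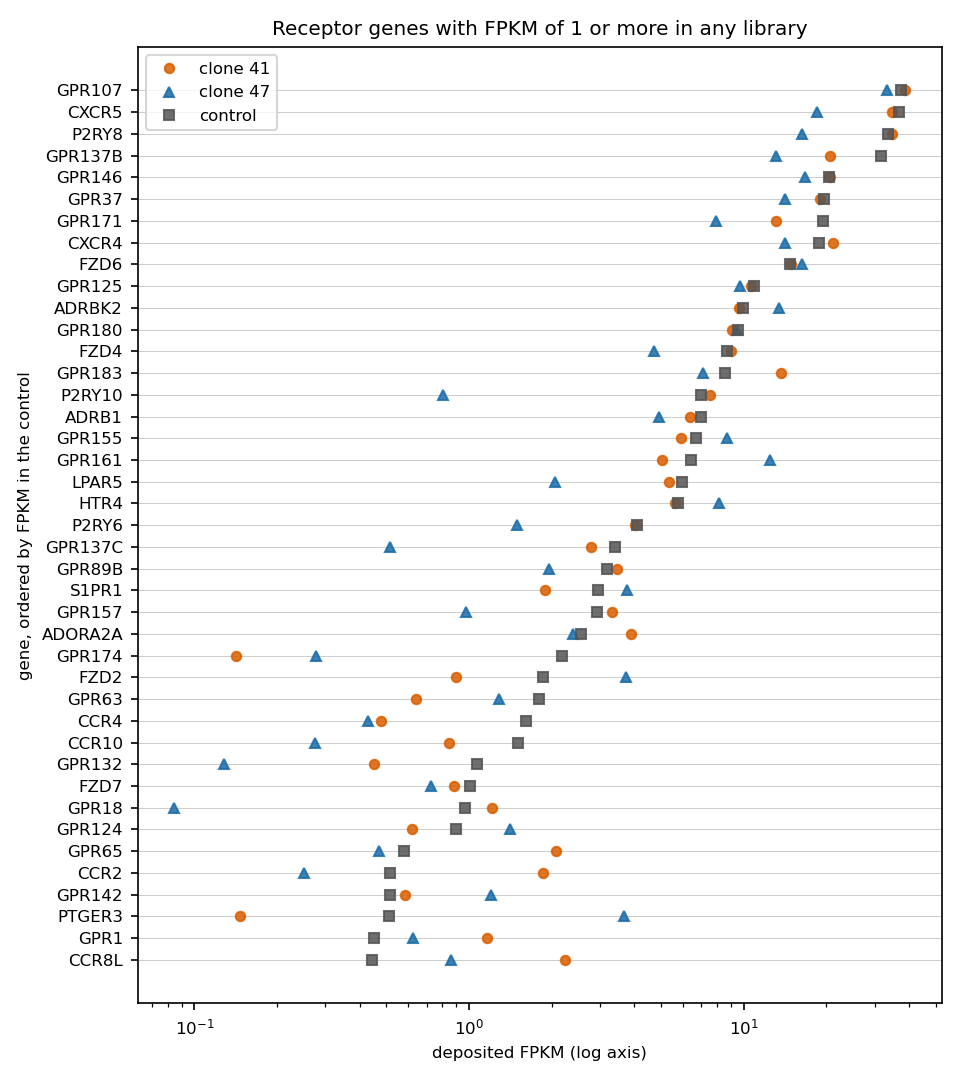
Deposited FPKM (log axis) in clone 41, clone 47 and the control for the reported genes of the name rule with at least 1 FPKM in any library, ordered by the control. Clone 41 (circles) lies near the control (squares) for most abundant genes, while P2RY10 and GPR137C lie far to the left in clone 47 (triangles) and PTGER3 far to the right.

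Chemokine receptors guide leukocytes along gradients of small secreted proteins. The abundant pair, CXCR5 and CXCR4, differed from the control mainly in clone 47. CXCR5 had 2224 counts in clone 41 and 1205 in clone 47, against 2435 in the control. That is 1.02 (0.961 to 1.08) times the control level in clone 41 and 0.512 (0.477 to 0.548) times it in clone 47. CXCR4 had 1840 counts in clone 41 and 1255 in clone 47, against 1750 in the control, or 1.17 (1.1 to 1.25) times the control level in clone 41 and 0.741 (0.689 to 0.797) times it in clone 47. Clone 47 was the lowest of the 3 libraries for both genes. Neither passed the test, with fitted log2 fold changes of -0.39 (SE 0.51) for CXCR5 and -0.06 (SE 0.53) for CXCR4 (edgeR adjusted p = 1 for each).

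The chemokine receptor genes CCR2 and CCR8L were scarce in the control and highest in clone 41. CCR2, the receptor for monocyte chemoattractants, had 89 counts in clone 41 and 10 in clone 47, against 21 in the control, or 4.72 (2.91 to 8.0) times the control level in clone 41 and 0.492 (0.207 to 1.09) times it in clone 47. The clone 47 interval for CCR2 holds 1. CCR8L, a gene named as similar to CCR8, had 141 counts in clone 41 and 49 in clone 47, against 23 in the control, or 6.83 (4.38 to 11.1) times the control level in clone 41 and 2.2 (1.32 to 3.79) times it in clone 47, and was thus higher than the control in both clones. Counts of these related receptors could be divided unevenly between near copies, which was not tested.

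CCR10, CCR8, CCR4 and CCR7 had fewer than 100 counts in every library. CCR10, a receptor for skin and mucosal chemokines, had 43 counts in clone 41 and 11 in clone 47, against 80 in the control, and was at 0.599 (0.404 to 0.879) times the control level in clone 41 and 0.142 (0.0682 to 0.268) times it in clone 47. CCR8 itself had 12 counts in clone 41 and 20 in clone 47, against 5 in the control. It was at 2.68 (0.877 to 9.69) times the control level in clone 41 and 4.13 (1.51 to 14.1) times it in clone 47. The clone 41 interval for CCR8 holds 1. By FPKM these CCR8 ratios were 1.07 and 1.51, so the size depended on the deposited measure. CCR4, a receptor of skin-homing and regulatory T cells, had 28 counts in clone 41 and 45 in clone 47, against 62 in the control. Its count ratio in clone 47 was 0.750 while its FPKM ratio was 0.267. CCR7, which leads lymphocytes to T cell zones, had 17 counts in clone 41 and 13 in clone 47, against 16 in the control, and the intervals of both ratios hold 1. Of 9 chemokine receptors, 4 were at least 2-fold higher than the control in clone 41 and 0 lower; in clone 47, 2 were higher and 2 lower. All but CXCR5 and CXCR4 lay under 5 CPM, where 11.9% of all tested genes were higher and 20.9% lower in clone 41, and 27.8% higher and 18.4% lower in clone 47.

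Receptors for lipids and nucleotides are described next, several of which are known from lymphocytes. P2RY8, a receptor that holds B cells within germinal centres, had 3654 counts in clone 41 and 1726 in clone 47, against 3703 in the control. It was at 1.1 (1.05 to 1.15) times the control level in clone 41 and 0.482 (0.455 to 0.510) times it in clone 47, and clone 47 lay well below the other libraries. P2RY10, a receptor for lysophosphatidylserine despite its name, had 437 counts in clone 41 and 46 in clone 47, against 443 in the control, or 1.1 (0.961 to 1.26) times the control level in clone 41 and 0.107 (0.0774 to 0.146) times it in clone 47. In clone 41 it was at 10.2 times its level in clone 47 (interval 7.55 to 14.2). GPR174, another lysophosphatidylserine receptor of lymphocytes, had 17 counts in clone 41 and 41 in clone 47, against 327 in the control. Unlike P2RY10 it was low in both clones, at 0.0580 (0.0333 to 0.0942) times the control level in clone 41 and 0.130 (0.0913 to 0.180) times it in clone 47, with FPKM of 0.142 in clone 41, 0.277 in clone 47 and 2.17 in the control. Its fitted log2 fold change of -3.39 (SE 0.93) had the smallest unadjusted p among members, 0.00132 by edgeR (adjusted p = 1).

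GPR132, a receptor of lymphocytes and macrophages linked to oxidised fatty acids, had 104 counts in clone 41 and 32 in clone 47, against 285 in the control. It was at 0.407 (0.322 to 0.511) times the control level in clone 41 and 0.116 (0.0779 to 0.168) times it in clone 47. The fit gave a log2 fold change of -1.95 (SE 0.88) (edgeR unadjusted p = 0.0360, adjusted p = 1). GPR65, a sensor of extracellular acidity on leukocytes, had 219 counts in clone 41 and 44 in clone 47, against 70 in the control, so clone 41 was the high library. Its ratios were 3.49 (2.65 to 4.63) times the control level in clone 41 and 0.650 (0.435 to 0.961) times it in clone 47. GPR18, a lymphoid receptor linked to lipid ligands, had 80 counts in clone 41 and 3 in clone 47, against 65 in the control. The clone 47 value rests on 3 counts, for a ratio of 0.0477 (0.00959 to 0.146), and by FPKM the ratio was 0.0871. GPR183, the oxysterol receptor that places activated B cells at follicle borders, was also highest in clone 41. It had 1295 counts in clone 41 and 702 in clone 47, against 877 in the control. Its ratios were 1.65 (1.51 to 1.8) times the control level in clone 41 and 0.827 (0.748 to 0.915) times it in clone 47. GPR171, a receptor gene of haematopoietic cells, had 1199 counts in clone 41 and 713 in clone 47, against 1868 in the control, and both clones lay below the control, at 0.715 (0.665 to 0.770) times the control level in clone 41 and 0.395 (0.361 to 0.430) times it in clone 47.

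**Figure D3:**
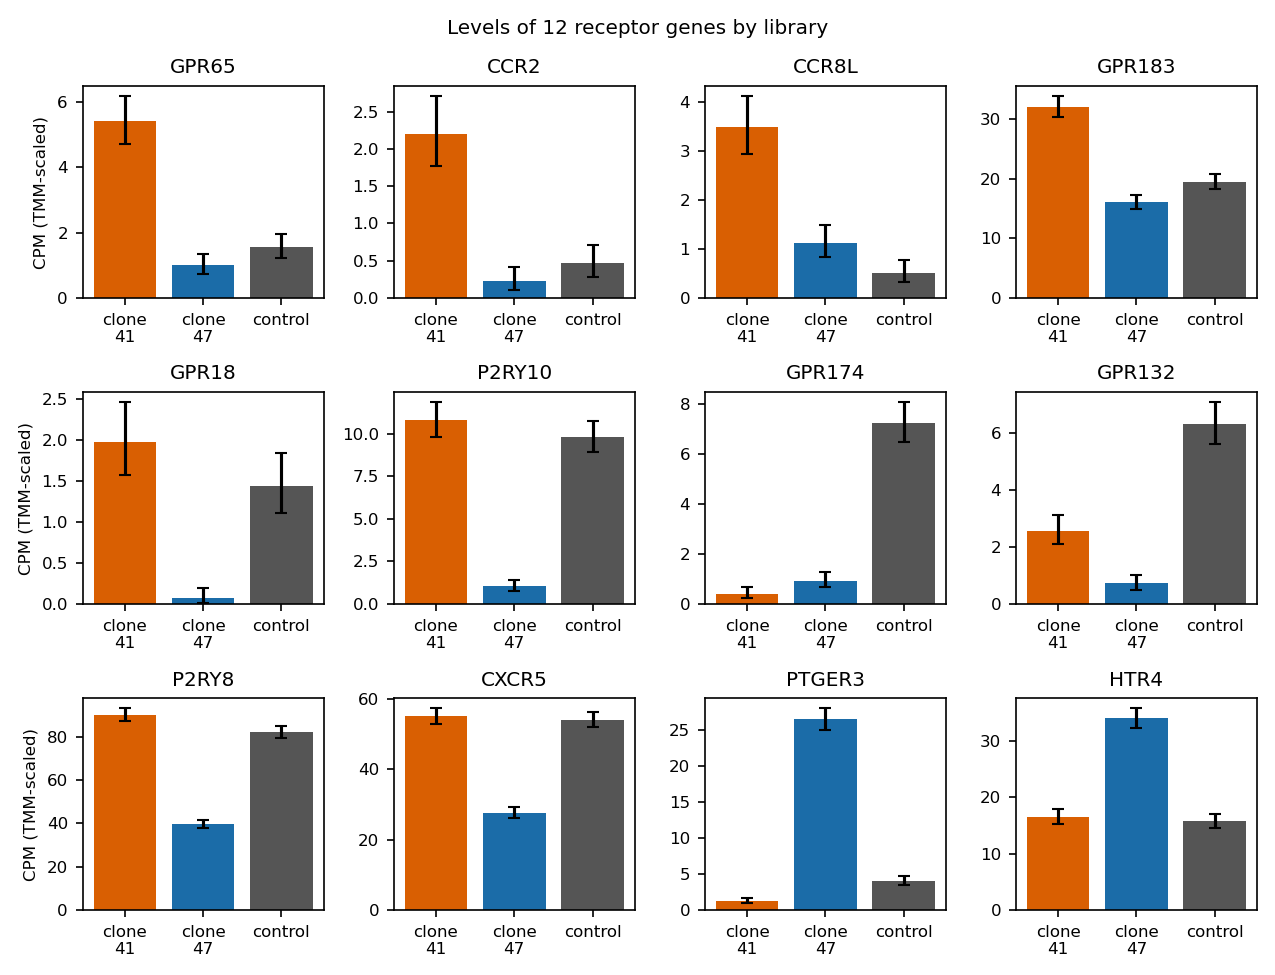
CPM of 12 receptor genes in clone 41, clone 47 and the control, on separate axes starting at 0; error bars are exact Poisson 95% intervals of counting error. GPR65, CCR2, CCR8L and GPR183 are highest in clone 41, GPR174 and GPR132 are highest in the control, and PTGER3 and HTR4 are highest in clone 47.

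LPAR5, a lysophosphatidic acid receptor found on B cells, had 435 counts in clone 41 and 169 in clone 47, against 525 in the control, and was at 0.924 (0.812 to 1.05) times the control level in clone 41 and 0.333 (0.278 to 0.396) times it in clone 47. S1PR1, the receptor for egress into blood and lymph, went the other way in clone 47, with 151 counts in clone 41 and 279 in clone 47, against 233 in the control, or 0.722 (clone 41) and 1.24 (clone 47) times the control level. LPAR3, with 10, 13 and 19 counts in clone 41, clone 47 and the control, had intervals holding 1 in both clones. P2RY6, the receptor for the nucleotide UDP, had 246 counts in clone 41 and 100 in clone 47, against 246 in the control, and was at 1.11 (0.930 to 1.34) times the control level in clone 41 and 0.420 (0.330 to 0.532) times it in clone 47. ADORA2A, the adenosine receptor that raises cyclic AMP and dampens lymphocytes, had 449 counts in clone 41 and 278 in clone 47, against 309 in the control, or 1.62 (1.4 to 1.88) times the control level in clone 41 and 0.930 (0.788 to 1.1) times it in clone 47. P2RY8, P2RY10, P2RY6 and ADORA2A were grouped as 4 genes by name, not by ligand. At least 2-fold below the control were 0 of the 4 in clone 41 (5.55% of all tested genes). In clone 47 it was 3 (7.57%), namely P2RY8, P2RY6 and the lysophosphatidylserine receptor gene P2RY10.

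Of the 13 B cell markers, 10 were below the control in clone 47 and 3 above it, where 38 of the 58 members were below it and 20 above. Of all 10203 tested genes, 5085 were below the control in clone 47 and 5115 above it. Of the 13 markers, 2 were at least 2-fold lower in both clones (1.45% of all tested genes were) and 0 higher in both. BLNK, LYN, BTK and POU2AF1, an adaptor, 2 kinases and a coactivator of B cell signalling and transcription, had ratios to the control of 0.470, 0.492, 0.420 and 0.477 in clone 47. BCL6, a repressor of germinal centre B cells, was at 1.25 (clone 41) and 1.63 (clone 47) times the control level, and EBF1 at 1.07 (clone 41) and 1.22 (clone 47) times the control level. The part of these markers in the receptor values was not tested. In bulk RNA, fewer cells expressing a gene and less of its RNA per cell cannot be told apart.

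PTGER3, a prostaglandin E receptor that lowers cyclic AMP, was low in clone 41 and high in clone 47. Its counts were 51 in clone 41 and 1156 in clone 47, against 184 in the control. It was at 0.309 (0.222 to 0.423) times the control level in clone 41 and 6.49 (5.55 to 7.63) times it in clone 47, and the FPKM had the same order, at 0.147 FPKM in clone 41 and 3.66 FPKM in clone 47, against 0.509 FPKM in the control. The fitted log2 fold change of 1.77 (SE 1.05) did not pass (edgeR adjusted p = 1). HTR4, a serotonin receptor that raises cyclic AMP, had 670 counts in clone 41 and 1485 in clone 47, against 711 in the control, or 1.05 (0.944 to 1.17) times the control level in clone 41 and 2.16 (1.97 to 2.36) times it in clone 47. By FPKM its clone 47 ratio was 1.41. HTR7, another such serotonin receptor, had 149 counts in clone 41 and 98 in clone 47, against 73 in the control, at 2.28 (clone 41) and 1.39 (clone 47) times the control level. ADRB1, the beta-adrenergic receptor of heart and other tissues, had 460 counts in clone 41 and 337 in clone 47, against 485 in the control, and was at 1.06 (clone 41) and 0.718 (clone 47) times the control level.

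**Figure D4:**
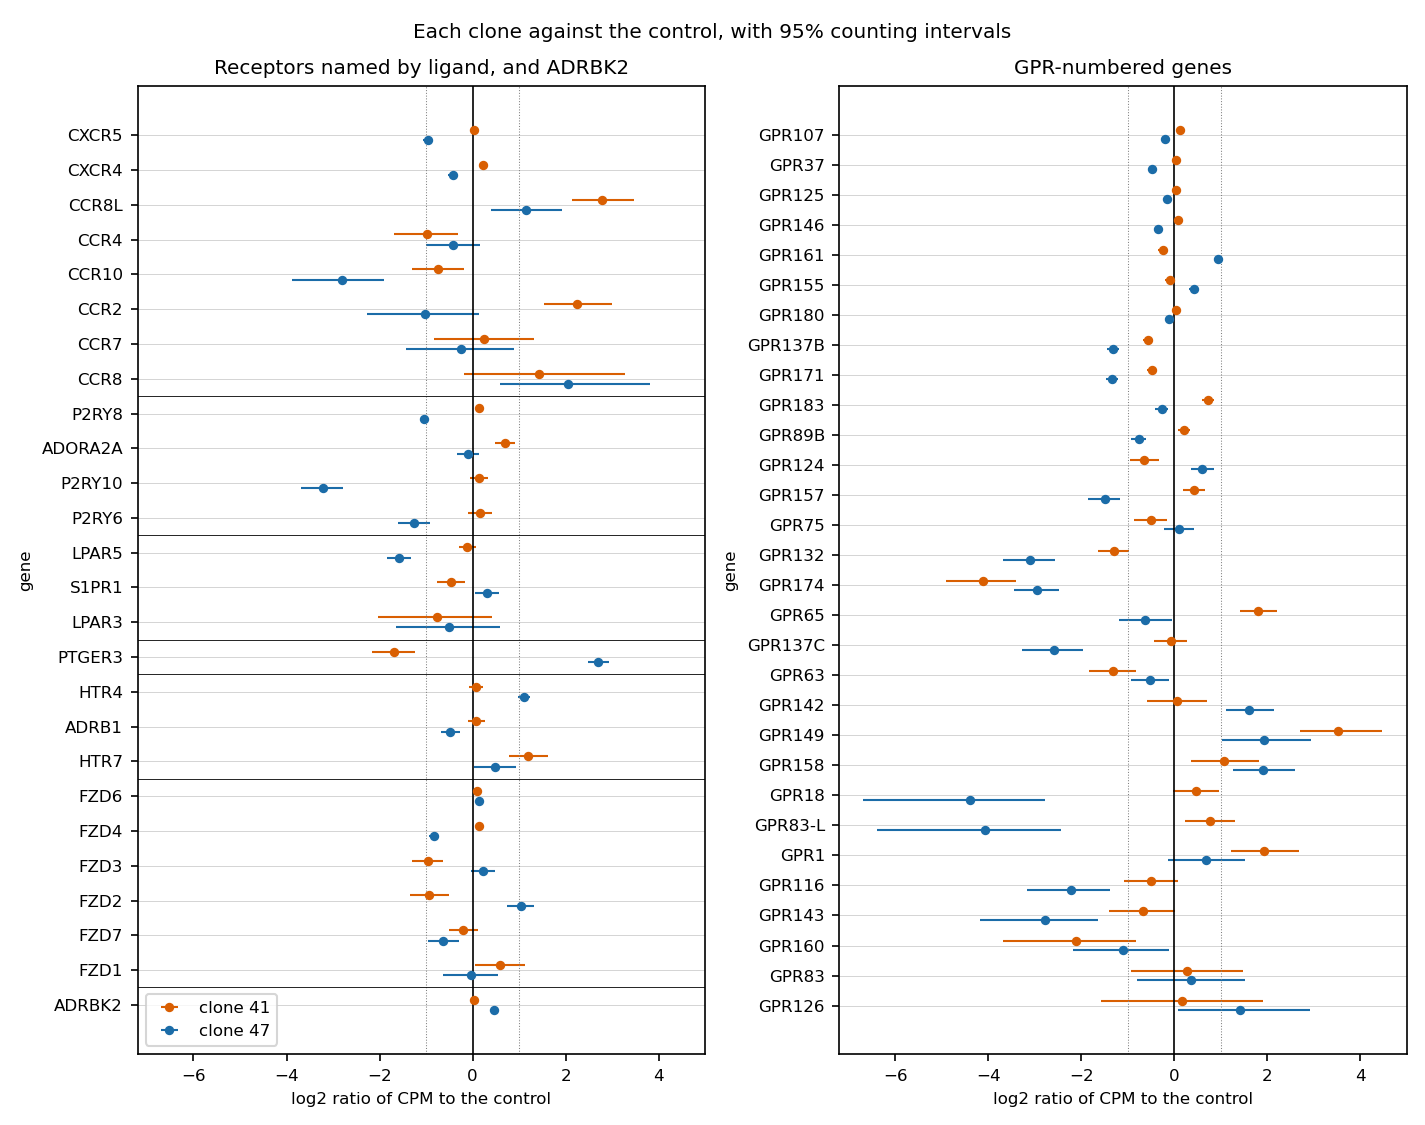
Log2 ratio of CPM to the control for 56 of the 58 genes in clone 41 (orange) and clone 47 (blue), with 95% counting intervals; lines mark no difference and 2-fold. In the left panel, horizontal rules separate classes set by gene name. Clone 41 points lie to the left of 0 for 22 of these 56 genes and clone 47 points for 36. Of all 10203 tested genes, 5116 were below the control in clone 41 and 5085 in clone 47.

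Frizzled receptors carry Wnt signals. FZD6, the most abundant of the 6 measured by FPKM, had 4949 counts in clone 41 and 5465 in clone 47, against 5129 in the control, and stayed close to the control at 1.08 (1.03 to 1.12) times the control level in clone 41 and 1.1 (1.06 to 1.14) times it in clone 47. FZD4, which also binds the ligand Norrin, had 1954 counts in clone 41 and 1084 in clone 47, against 1978 in the control, and was at 1.1 (1.03 to 1.17) times the control level in clone 41 and 0.566 (0.526 to 0.610) times it in clone 47. FZD2 had 72 counts in clone 41 and 303 in clone 47, against 153 in the control, so the clones lay on opposite sides of the control at 0.525 (0.391 to 0.699) times the control level in clone 41 and 2.05 (1.68 to 2.5) times it in clone 47. FZD3, known from axon guidance, had 110 counts in clone 41 and 271 in clone 47, against 240 in the control, with ratios of 0.511 (clone 41) and 1.17 (clone 47) times the control level. FZD7 was at 0.869 (clone 41) and 0.646 (clone 47) times the control level, and FZD1, with 49 to 70 counts, at 1.5 (clone 41) and 0.974 (clone 47) times the control level. None of the 6 was at least 2-fold lower than the control in either clone after the prior count of 2, and FZD2 in clone 47 was the only one at least 2-fold higher.

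Adhesion receptors carry long extracellular domains. GPR125, the abundant one, had 3772 counts in clone 41 and 3577 in clone 47, against 4123 in the control, at 1.02 (clone 41) and 0.897 (clone 47) times the control level. GPR124, which assists Wnt signalling in brain vessels, had 141 counts in clone 41 and 361 in clone 47, against 246 in the control, at 0.639 (clone 41) and 1.52 (clone 47) times the control level. GPR116, known from lung surfactant control, had 43 counts in clone 41 and 14 in clone 47, against 68 in the control, or 0.705 (0.470 to 1.05) times the control level in clone 41 and 0.213 (0.111 to 0.382) times it in clone 47. GPR126, a regulator of myelination, had 7, 18 and 7 counts in clone 41, clone 47 and the control.

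Among the most abundant GPR-numbered genes, GPR107, GPR37 and GPR146 were lowest in clone 47 and GPR161 was highest there. GPR107 had 6858 counts in clone 41 and 5969 in clone 47, against 7057 in the control, at 1.08 (1.05 to 1.12) times the control level in clone 41 and 0.874 (0.845 to 0.905) times it in clone 47. GPR37, a receptor best known from neurons and glia, had 5577 counts in clone 41 and 4214 in clone 47, against 6099 in the control, at 1.02 (0.983 to 1.06) times the control level in clone 41 and 0.714 (0.687 to 0.743) times it in clone 47. GPR146, linked to lipid metabolism in liver, had 3076 counts in clone 41 and 2452 in clone 47, against 3252 in the control, at 1.05 (clone 41) and 0.779 (clone 47) times the control level. GPR161, a brake on Hedgehog signalling in the primary cilium, stood out in clone 47, with 1483 counts in clone 41 and 3643 in clone 47, against 1969 in the control, or 0.840 (0.784 to 0.899) times the control level in clone 41 and 1.91 (1.81 to 2.02) times it in clone 47. GPR180 was at 1.03 (clone 41) and 0.926 (clone 47) times the control level, and GPR155, a lysosomal cholesterol sensor, at 0.931 (clone 41) and 1.33 (clone 47) times the control level. GPR137B, a lysosomal regulator of the growth kinase mTORC1, had 1241 counts in clone 41 and 795 in clone 47, against 2051 in the control, and both clones were below the control at 0.674 (0.628 to 0.724) times the control level in clone 41 and 0.401 (0.369 to 0.435) times it in clone 47. Its relative GPR137C had 127 counts in clone 41 and 24 in clone 47, against 150 in the control, or 0.944 (0.739 to 1.2) times the control level in clone 41 and 0.165 (0.103 to 0.256) times it in clone 47. GPR89B was at 1.16 (clone 41) and 0.587 (clone 47) times the control level.

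Several scarcer GPR-numbered genes differed widely. GPR149, an orphan receptor known from the ovary, had 134 counts in clone 41 and 48 in clone 47, against 13 in the control. It was at 11.5 (6.5 to 22.1) times the control level in clone 41 and 3.82 (2.04 to 7.68) times it in clone 47, the highest ratio among members in clone 41, with a fit of 2.91 (SE 1.38) on the log2 scale (edgeR unadjusted p = 0.0462, adjusted p = 1). GPR158, a neuronal receptor for glycine, had 49 counts in clone 41 and 94 in clone 47, against 26 in the control, or 2.1 (1.28 to 3.52) times the control level in clone 41 and 3.74 (2.4 to 6.01) times it in clone 47; by FPKM these ratios were 1.07 and 1.56. GPR83-L, a gene named as similar to GPR83, had 79 counts in clone 41 and 3 in clone 47, against 52 in the control, so clone 47 held 3 counts and a ratio of 0.0596 (0.0119 to 0.184), where the FPKM ratio was 0.131. GPR83 had 14, 16 and 13 counts in clone 41, clone 47 and the control.

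GPR157 had 335 counts in clone 41 and 95 in clone 47, against 278 in the control, at 1.34 (1.14 to 1.58) times the control level in clone 41 and 0.353 (0.277 to 0.447) times it in clone 47. Clone 47 was its lowest library. GPR143, the ocular albinism protein of pigment granules, had 28 counts in clone 41 and 7 in clone 47, against 50 in the control, at 0.624 (0.378 to 1.01) times the control level in clone 41 and 0.145 (0.0554 to 0.321) times it in clone 47. GPR142, an amino acid receptor of the pancreas, had 42 counts in clone 41 and 133 in clone 47, against 45 in the control, at 1.04 (0.667 to 1.62) times the control level in clone 41 and 3.06 (2.16 to 4.38) times it in clone 47. GPR1, a chemerin receptor, had 75 counts in clone 41 and 34 in clone 47, against 22 in the control, at 3.8 (2.34 to 6.42) times the control level in clone 41 and 1.6 (0.908 to 2.87) times it in clone 47. GPR63, an orphan receptor, had 45 counts in clone 41 and 84 in clone 47, against 125 in the control, and GPR160 had 6, 13 and 29 counts in the same order of libraries. GPR75, which had no FPKM, had 107 counts in clone 41 and 176 in clone 47, against 170 in the control. ADRBK2, the receptor kinase, had 2155 counts in clone 41 and 3135 in clone 47, against 2348 in the control, at 1.02 (0.965 to 1.09) times the control level in clone 41 and 1.38 (1.31 to 1.46) times it in clone 47.

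Members at least 2-fold away from the control in both clones and in the same direction numbered 7, or 12.1%, against 2.84% of all tested genes. None of the 27 members at or above 5 CPM was among them, where 0.392% of all tested genes were. That split uses the mean over all 3 libraries, so a gene low in both clones is drawn under 5 CPM by its own change. GPR174 was at 7.25 CPM and GPR132 at 6.32 CPM in the control, with means of 2.87 and 3.21 CPM. The absence at 5 CPM and above is thus no result about abundant receptors. Under 5 CPM the shares were 22.6% of members and 11.3% of all tested genes. GPR174, GPR132 and GPR160 were lower, or 5.17% of members against 1.45% of all tested genes. GPR149, GPR158, CCR8L and CCR8 were higher, or 6.90% against 1.39%. By log2(FPKM + 0.1) 0 were higher and 3 lower in both clones, and by log2(FPKM + 1) 0 and 1, with no share of all genes computed on those scales. PTGER3 was 1 of 2 members at least 2-fold away from the control in opposite directions, which is 3.45% of members against 1.38% of all tested genes. Both comparisons use the same control library, so shared directions are not independent.

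**Figure D5:**
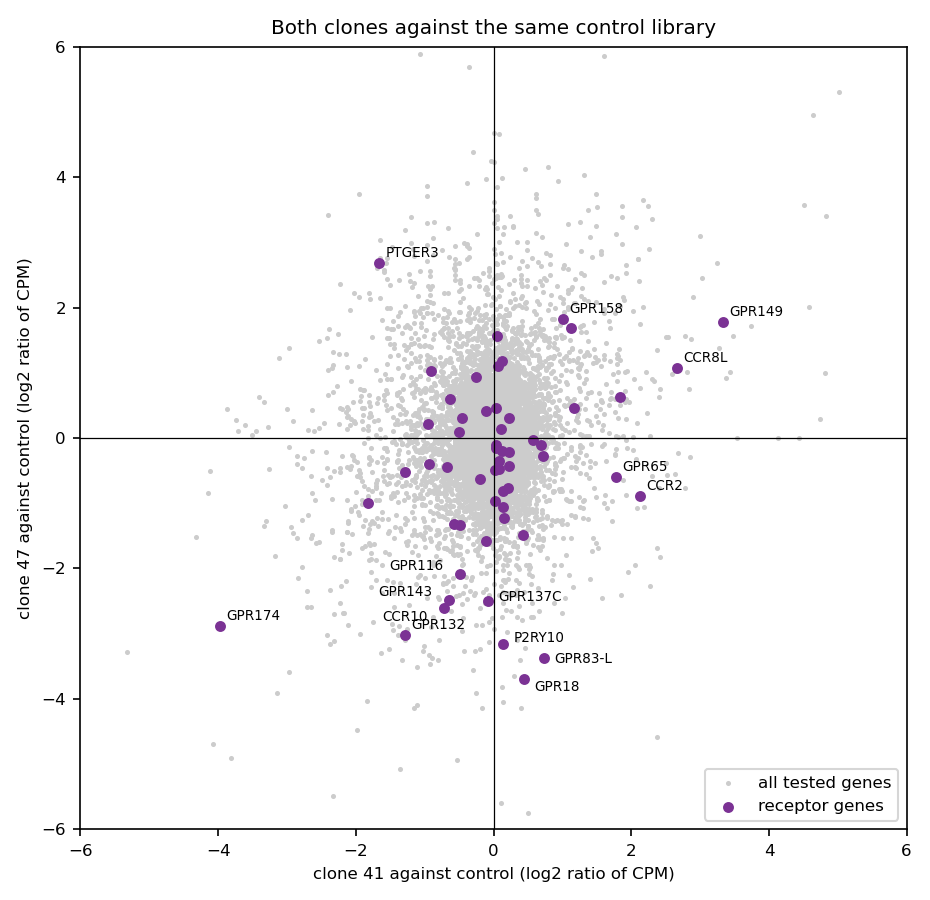
Log2 ratio of CPM to the control in clone 41 (x) and clone 47 (y) for 56 of the 58 genes of the name rule (purple) over all tested genes (grey, 2 of which lie outside the axes). GPR174 and GPR132 lie at the lower left, CCR8L, GPR158 and GPR149 at the upper right and PTGER3 at the upper left; both axes share the control library.

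Set directly against each other, 28 members were at least 2-fold apart between the clones, 19 higher in clone 41 and 9 higher in clone 47. That is 48.3% of members against 20.8% of all tested genes, with no replicate of either clone. Those higher in clone 41 made up 32.8%, against 8.67% of all tested genes, and those higher in clone 47 15.5%, against 12.2%. In either direction the shares were 33.3% of members against 11.8% of all tested genes at 5 CPM and above, and 61.3% against 51.9% below it. At 5 CPM and above, 18.5% of members were higher in clone 41 (against 6.12%) and 14.8% higher in clone 47 (against 5.73%). The 14.8% includes PTGER3, which exceeded 5 CPM through its clone 47 value. Under 5 CPM, 45.2% were higher in clone 41 (against 17.5%) and 16.1% higher in clone 47 (against 34.4%). By any amount, 37 members (63.8%) were lower in clone 47 than in clone 41, against 48.3% of all tested genes. Over all members the median log2 ratio of clone 41 to clone 47 was 0.58, against -0.03 over all tested genes.

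Some members are neighbours on the chromosome. In the RefSeq gene order of assembly GRCg7b, to which 54 of the 58 genes matched, several pairs lay within 5 protein-coding genes of each other. CCR2 and CCR8L are adjacent, with log2 ratios of 2.13 and 2.67 in clone 41 and -0.89 and 1.07 in clone 47. GPR183 and GPR18 are also adjacent, with log2 ratios of 0.72 and 0.44 in clone 41 and -0.27 and -3.69 in clone 47. P2RY10 and GPR174 lie 2 genes apart and were alike in clone 47 (-3.16 and -2.89) but not in clone 41 (0.14 and -3.97). CCR4 and CCR8 also lie 2 genes apart, with -0.94 and 1.12 in clone 41 and -0.40 and 1.68 in clone 47.

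Partners of these receptors and other receptors of the superfamily were read from lists of genes, and none of the 162 tested genes passed edgeR's test. The 162 include 35 such other receptors and ADRBK2, itself a member. At least 2-fold away from the control were 23 of the 162 in clone 41, 8 higher and 15 lower, and 44 in clone 47, 19 higher and 25 lower. The 35 other receptors supplied 4 higher and 4 lower in clone 41, and 8 higher and 7 lower in clone 47. Over all tested genes, 3.20% were higher and 5.55% lower in clone 41, and 9.42% higher and 7.57% lower in clone 47, and the counts of each list stand against these shares.

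G protein subunits, 19 tested, had median log2 ratios of 0.06 (clone 41) and -0.12 (clone 47). At least 2-fold higher were 0 in clone 41 and 3 in clone 47, with 1 lower in each. The lower gene was the same in both clones, at log2 ratios of -2.69 (clone 41) and -1.18 (clone 47). Of all tested genes, 1.45% were at least 2-fold lower in both clones. The beta subunit gene GNB1 had 27443 counts in clone 41 and 19910 in clone 47, against 24683 in the control, and GNA13, the alpha subunit through which P2RY8 acts, was at 1.04 (clone 41) and 0.776 (clone 47) times the control level. GNG12, a gamma subunit gene, had 95 counts in clone 41 and 541 in clone 47, against 64 in the control, or 1.65 (1.19 to 2.31) times the control level in clone 41 and 8.74 (6.73 to 11.5) times it in clone 47. GNG5 was at 1.14 (clone 41) and 2.14 (clone 47) times the control level, and GNAO1, an inhibitory alpha subunit gene best known from brain, at 1.04 (clone 41) and 2.26 (clone 47) times the control level.

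RGS genes, whose products shorten G protein signals, numbered 16 tested, with medians of -0.13 and 0.13 in clone 41 and clone 47; 2 were at least 2-fold lower in clone 41, and 1 higher and 3 lower in clone 47. RGS8 had 29 counts in clone 41 and 557 in clone 47, against 75 in the control, or 0.431 (0.271 to 0.670) times the control level in clone 41 and 7.68 (6.02 to 9.9) times it in clone 47. RGS20 was at 0.625 (clone 41) and 0.191 (clone 47) times the control level, and RGS12 at 0.492 (clone 41) and 0.979 (clone 47) times the control level. RGS14, an abundant one, was at 1.11 (clone 41) and 1.57 (clone 47) times the control level and RGS9 at 1.36 (clone 41) and 1.69 (clone 47) times the control level. Receptor kinases and arrestins, 9 tested with ADRBK2 among them, had medians of -0.07 and -0.06, and GRK5 in clone 47 was the only one at least 2-fold from the control, at 0.564 (clone 41) and 0.302 (clone 47) times the control level. GRK2 was at 0.952 (clone 41) and 0.878 (clone 47) times the control level, GRK4 at 0.710 (clone 41) and 0.796 (clone 47) times the control level and ARRDC3, an arrestin-like gene, at 0.833 (clone 41) and 1.68 (clone 47) times the control level.

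Cyclic AMP pathway genes, 22 tested, had medians of 0.02 in both clones, with 1 higher and 1 lower at 2-fold in clone 41 and 2 higher and 1 lower in clone 47. The cyclase gene ADCY3 was at 0.806 (clone 41) and 2.66 (clone 47) times the control level, ADCY7, the cyclase of leukocytes, at 1.27 (clone 41) and 0.418 (clone 47) times the control level and the phosphodiesterase gene PDE8A at 0.599 (clone 41) and 3.62 (clone 47) times the control level. The kinase subunit genes PRKACB and PRKAR1A lay within 0.961 and 1.12 times in both clones. Phospholipase C and GTPase exchange factor effectors, 18 tested, had medians of 0.13 and -0.11, with 0 higher and 4 of 18 lower at 2-fold in each clone, where 5.55% (clone 41) and 7.57% (clone 47) of all tested genes were lower. PRKCD was at 0.331 (clone 41) and 1.01 (clone 47) times the control level, PRKCQ at 1.2 (clone 41) and 0.386 (clone 47) times the control level and the calcium channel gene ITPR3 at 0.696 (clone 41) and 0.453 (clone 47) times the control level. RHOA and the exchange factor gene PREX1 were abundant and lay between 0.906 and 1.16 times.

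Wnt co-receptors and transducers, 25 tested, had medians of -0.06 and -0.05, with 2 higher and 2 lower at 2-fold in clone 41 and 3 of each in clone 47. CTNNB1, encoding beta-catenin, was at 1.13 (clone 41) and 1.15 (clone 47) times the control level and the kinase gene CSNK1A1 at 0.975 (clone 41) and 0.687 (clone 47) times the control level. The transcription factor gene TCF7 was at 2.2 (clone 41) and 2.33 (clone 47) times the control level, DKK2 at 0.418 (clone 41) and 3.51 (clone 47) times the control level and WNT6 at 0.675 (clone 41) and 0.163 (clone 47) times the control level, each with at most 136 counts in a library. Ligands and ligand enzymes, 18 tested, had medians of -0.04 and -0.12, with 1 higher and 1 lower in clone 41 and 2 higher and 5 lower in clone 47. CCL5, an inflammatory chemokine, had 239 counts in clone 41 and 22 in clone 47, against 119 in the control, or 2.24 (1.79 to 2.81) times the control level in clone 41 and 0.191 (0.115 to 0.303) times it in clone 47. CCL20, the ligand of CCR6, had 9 counts in clone 41 and 98 in clone 47, against 25 in the control, and PTGS2, a prostaglandin synthase, 61 counts in clone 41 and 27 in clone 47, against 68 in the control. The sphingosine phosphate lyase gene SGPL1 was at 1.65 (clone 41) and 1.53 (clone 47) times the control level and the adenosine deaminase gene ADA at 0.533 (clone 41) and 1.68 (clone 47) times the control level.

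Other receptors of the superfamily, outside the name rule, numbered 35 tested. Their median log2 ratio was -0.19 (clone 41) and 0.58 (clone 47), where the named members had 0.06 and -0.42. At least 2-fold from the control were 4 higher and 4 lower in clone 41 and 8 higher and 7 lower in clone 47. These 35 genes summed to 177 CPM in clone 41, 297 CPM in clone 47 and 185 CPM in the control. Among all tested genes under 5 CPM, 11.9% were higher and 20.9% lower in clone 41, and 27.8% higher and 18.4% lower in clone 47. Median log2 ratios over all tested genes under 5 CPM were -0.17 (clone 41) and 0.20 (clone 47). CELSR3, a cadherin-type receptor, was at 1.12 (clone 41) and 2.15 (clone 47) times the control level, and the endothelin receptor gene EDNRA at 0.979 (clone 41) and 1.63 (clone 47) times the control level. RXFP1, a relaxin receptor, had 200 counts in clone 41 and 145 in clone 47, against 63 in the control, and SUCNR1, a succinate receptor, 17 counts in clone 41 and 81 in clone 47, against 76 in the control. The difference between these receptors and the named members was not tested.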

How the data were processed

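RNA was measured in 3 libraries; grouping followed the genotype label. Per the labels' protocols, mRNA was enriched, made into strand-specific libraries with 10 PCR cycles and read as 75-base paired ends. Cufflinks 2.2.1, Cuffdiff, Bowtie, TopHat and TopHat2 and the build galGal4 are named, per the submitters' processing notes. The deposited counts are whole reads per gene, and the deposited FPKM values are named normalised counts on the authors' cover sheet. No source used here gives the counting program, annotation or strand setting, so overlapping genes may share reads.

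From the counts, filterByExpr (minimum 10, total 15) in edgeR 4.0.16 kept 10203 genes. TMM scaling and the quasi-likelihood F test (newer estimator, adjusted p threshold 0.05) followed; standard errors were derived from F. With 1 control, its spread is taken to equal that of the clones, and the labels name no separate cultures, so p-values measure only the spread between these libraries. The 2-fold counts and log2 ratios used CPM with a prior count of 2; printed ratios have none. Alternatives used DESeq2 1.42.0, limma 3.58.1, other scalings and log2(FPKM + 1). A count of 0 allows up to 0.0742 CPM in clone 41, 0.0688 in clone 47 and 0.0666 in the control (3 counts).

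Members and lists were chosen with earlier results of these data known. Named in full by rule were the 8 members with the highest mean CPM and those at least 2-fold in both clones, or 4-fold in any comparison, at 0.5 CPM or more. Some genes in the counts are not reported here by name, which leaves 23 of these. Of each pathway list, the rule took the 2 most abundant genes and the 3 with the largest ratios at 1 CPM or more. Other members were named after their values were seen. List symbols were matched directly or through RefSeq synonyms.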

Additional observations from a re-analysis of the deposited data

Results flagged for a closer look

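Some receptor genes left out of the comparisons had a higher deposited FPKM in clone 47 than in the control. Of the 37 genes under the count minimum, 34 had an FPKM. In clone 41, 12 of these were above the control and 18 below it, and in clone 47 18 were above and 13 below. At least 2-fold above the control and at 0.1 FPKM or more were 0 in clone 41 and 5 in clone 47; at least 2-fold below a control of 0.1 FPKM or more were 6 in clone 41 and 1 in clone 47. The 5 and GPR22 are given here. The share of all genes under this FPKM rule was not computed. By counts, of all tested genes under 5 CPM, 11.9% were at least 2-fold higher and 20.9% lower in clone 41. In clone 47 it was 27.8% higher and 18.4% lower. Whether the left-out receptor genes differ from other scarce genes was not tested. HTR1D, a serotonin receptor gene under the count minimum, was at 0.291 FPKM in clone 41 and 2.31 FPKM in clone 47, against 0.306 FPKM in the control, with 5, 13 and 4 counts. S1PR4, a sphingosine 1-phosphate receptor gene of lymphocytes, was at 0.583 and 2.67 FPKM in clone 41 and clone 47, against 0.885 FPKM in the control, although it had 0, 2 and 0 counts, too few to show a level. The adrenergic receptor genes ADRA2A and ADRA2B were at 0.215 and 0.256 FPKM in clone 47, against 0.0294 FPKM and a listed 0 in the control; their counts in clone 41, clone 47 and the control were 0, 17 and 1 for ADRA2A and 1, 25 and 0 for ADRA2B. P2RY13, a nucleotide receptor gene, was at 0.161 FPKM in clone 47 and listed at 0 in the control, with 2 and 0 counts, also too few. GPR22, present in the FPKM table but not among the counts used here, was listed at 0 in clone 41 and stood at 0.382 FPKM in clone 47, against 0.0732 FPKM in the control.

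PTGER3 lay at least 2-fold from the control on opposite sides in the clones. The log2 ratio of clone 41 minus that of clone 47 was -4.34. With 1 library per clone this difference was not tested.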

How the results depend on the processing

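No paired analysis was possible because the labels give no replicate numbers shared by knock-in and control. Leaving out a clone leaves 1 library against 1, so it gives values with no test, and the control cannot be left out. Over all genes, where edgeR's newer estimator called 0, the legacy estimator and DESeq2 called 2 each and limma-voom 1; members called stayed at 0 in all 8 alternatives. On log2(FPKM + 1), members at least 2-fold were 3 in clone 41, 8 in clone 47, 13 between the clones and 1 in both clones, and pathway genes 2 and 7 in clone 41 and clone 47. A pseudocount of 1 FPKM shrinks ratios of scarce genes by construction. On log2(FPKM + 0.1) the number in both clones was 3. No share over all genes was computed on the FPKM scales. The clone 41 median of members was 0.06 as reported, -0.0119 with total counts, -0.0374 on log2(FPKM + 1) and -0.0432 on log2(FPKM + 0.1). With total counts the clone 41 median over all tested genes was -0.0772. The cause of the changes of sign was not tested. Fitted log2 fold changes of 12 of 23 named genes changed sign without one of the clones. Over both omissions they ranged from -0.19 to 0.12 for GPR107, -0.49 to 0.0276 for GPR37, -0.16 to 0.0283 for GPR125, -0.36 to 0.0764 for GPR146, -0.25 to 0.94 for GPR161, -0.62 to 1.80 for GPR65, -4.33 to 0.46 for GPR18, -4.01 to 0.76 for GPR83-L, -1.01 to 2.23 for CCR2, -1.05 to 0.14 for P2RY8, -3.22 to 0.14 for P2RY10 and -1.69 to 2.70 for PTGER3. Count and FPKM ratios to the control differed by over 1.5 times for 5 of 57 members in clone 41 and 8 in clone 47, mostly scarce genes. Depth limits the genes with a few counts, such as GPR18 and GPR83-L in clone 47.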

Other observations

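Of the 95 genes with a receptor name, 37 had fewer than 30 summed counts. Among them CCR6, a chemokine receptor of mucosal lymphocytes, had 2 counts in clone 41 and 6 in clone 47, against 20 in the control. P2RY1, a receptor for ADP, had 2 counts in clone 41 and 6 in clone 47, against 12 in the control. LPAR2, a lysophosphatidic acid receptor, had 6 counts in clone 41 and 7 in clone 47, against 2 in the control. Both of its count-ratio intervals hold 1, and by FPKM it was listed at 0 in both clones, against 0.0360 FPKM in the control. CCR6, P2RY1 and LPAR2 were named after their values were seen.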
